A study of Arabidopsis thaliana with 9 samples.

Results

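The genes described here are 10 Arabidopsis thaliana genes that act in membrane lipid remodelling under phosphate starvation, taken by locus from 33602 loci listed in every library. They are MGD2, MGD3 and DGD2, which make galactolipids, SQD1 and SQD2, which make sulfolipid, PLDZ2, NPC4 and GDPD1, which break down phospholipids, and PECP1 and PS2, phosphatases linked to phospholipid headgroups. All 10 were detected in every library and passed the filter on low counts. RNA of root tips, the last 2 to 3 mm of the root, was sequenced in 9 libraries, 1 for each of 9 combinations of genotype and medium. The genotypes were wild type (ecotype Col 0, stock CS70000) and the mutants stop1 and almt1. The series title calls the mutants insensitive to low phosphate, and the labels name no alleles.

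All seedlings were taken 5 days after germination from agar plates with 0.1X modified MS medium and 1% sucrose at pH 5.7. High phosphate was 1 mM and low phosphate 5 µM, and each genotype had 1 library at each. Wild type had a further library at low phosphate with low iron, in which no iron sulfate was given and 100 µM ferrozine, an iron chelator, was present. Each mutant had a further library from medium low in phosphate to which 1 mM L-malate was added. The STOP1 gene encodes a zinc-finger regulator of transcription, and ALMT1 a malate exporter whose expression requires STOP1. For the malate library of stop1 the sample title and the sample characteristics disagree on phosphate. The characteristics, low phosphate plus malate, were used here.

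Membranes hold much of a plant cell's organic phosphate as phospholipid. When phosphate is scarce, phospholipases cut phospholipids, the released headgroups are stripped of phosphate, and the diacylglycerol left over is rebuilt into galactolipids and sulfolipid, which carry no phosphate. Many of the genes involved are known targets of PHR1, a MYB transcription factor that binds a short palindromic DNA element.

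To show where that element lies in these genes, GNATATNC, the PHR1 binding site, was searched on both strands in RefSeq TAIR10.1, from 250 bases before to 50 after each annotated gene start. The site reads the same on both strands, so each match was counted once. Of the 10 windows, 6 held a match, beside 6.24% of the 26711 windows of protein-coding loci. In the 250 bases before the start alone, 5 of 10 held one, beside 5.44% of loci. The 8 matches follow with 10 bases on either side, or as far as the window reached, the matching bases in capitals and the sequence read along the gene.

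MGD2, chr5:6896439-6896466, plus strand: atatactactGAATATTCttttgttaat
MGD2, chr5:6896490-6896512, plus strand: cgaggaccttGAATATTCgaatc
SQD1, chr4:15935377-15935404, plus strand: gaataagtaaGAATATGCtttgggcata
PLDZ2, chr3:1635004-1635031, plus strand: taaccaagttGCATATACacggcagggt
NPC4, chr3:845298-845325, minus strand: ttgaaaaagtGAATATTCttgacacaga
GDPD1, chr3:350120-350147, minus strand: agaggggaggGAATATCCaaaagggata
GDPD1, chr3:350056-350083, minus strand: gcgatccaaaGAATATTCcaagatccca
PS2, chr1:27466548-27466575, minus strand: ttgggtaacgGAATATTCttctcttatt

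Both matches of MGD2 and those of NPC4 and PS2, with the nearer one of GDPD1, had the same 8 bases, while SQD1, PLDZ2 and the farther match of GDPD1 each had a variant of their own. Counted in bases from the gene start, the matches began at −219 in NPC4, −217 in PS2, −180 in PLDZ2, −127 and −63 in GDPD1, −14 and 37 in MGD2 and 14 in SQD1. No match lay in the windows of MGD3, DGD2, SQD2 and PECP1, which says only that these letters are not there. The whole 250 bases before the start are shown for GDPD1, with its pair of matches, and for PS2 and PECP1, related phosphatases. Of these phosphatases only PS2 had a match in the 250 bases, while PS2 and PECP1 each had 2 in the 1000 bases before the start.

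GDPD1, chr3:350011-350260, minus strand: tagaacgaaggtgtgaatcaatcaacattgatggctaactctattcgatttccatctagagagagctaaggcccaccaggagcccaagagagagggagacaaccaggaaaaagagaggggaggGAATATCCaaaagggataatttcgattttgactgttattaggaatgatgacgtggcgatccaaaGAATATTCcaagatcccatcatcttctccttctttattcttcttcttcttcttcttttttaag
PS2, chr1:27466349-27466598, minus strand: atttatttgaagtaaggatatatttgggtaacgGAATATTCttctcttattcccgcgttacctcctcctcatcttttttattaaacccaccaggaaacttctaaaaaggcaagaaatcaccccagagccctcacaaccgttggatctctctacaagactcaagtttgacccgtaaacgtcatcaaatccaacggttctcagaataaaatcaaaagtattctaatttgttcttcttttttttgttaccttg
PECP1, chr1:6092028-6092277, minus strand: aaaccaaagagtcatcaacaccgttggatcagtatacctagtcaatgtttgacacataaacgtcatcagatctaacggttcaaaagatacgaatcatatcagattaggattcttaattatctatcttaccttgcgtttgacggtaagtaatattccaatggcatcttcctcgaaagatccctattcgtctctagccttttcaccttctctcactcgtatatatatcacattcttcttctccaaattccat

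**Figure D1:**
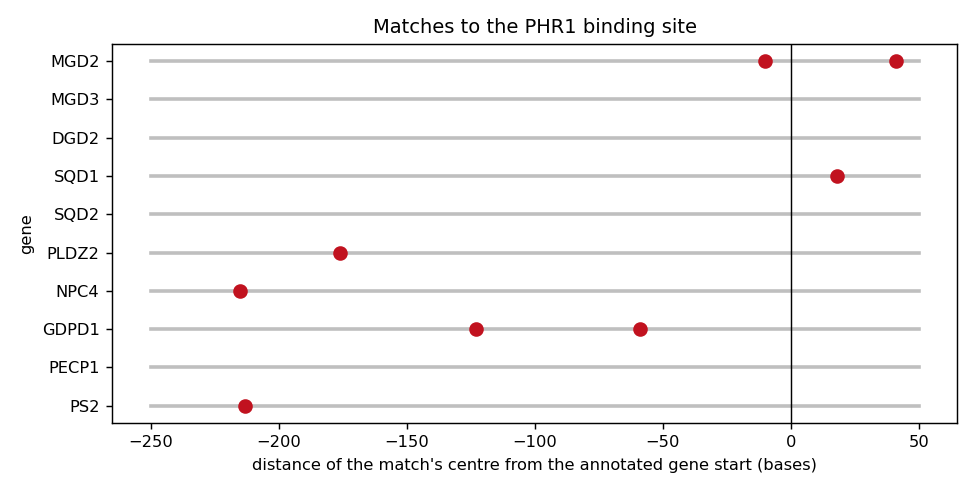
Position of each match to the PHR1 site in the 10 windows, as distance in bases of the match's centre from the annotated gene start (vertical line). Points are matches and grey bars the window searched. The 4 genes without a point are MGD3, DGD2, SQD2 and PECP1.

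The genes lie on all 5 nuclear chromosomes. In TAIR10.1, 8 of them overlap no other locus. GDPD1 (chr3:348167-350010) shares 681 exon bases with AT3G02030 on the opposite strand, and PLDZ2 (chr3:1635194-1640357) shares 8 with AT3G05640. The libraries do not keep the strand, so reads in the shared bases cannot be assigned. AT3G02030 itself stood at 3.05 to 7.07 CPM (counts put on the same library size, with TMM scaling to even out library composition), below GDPD1 in every library.

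Gene counts were 20619740 to 37189056 per library, so that 3 counts, the floor used for a count of 0, are 0.0767 to 0.147 CPM. Wild type at low phosphate stood apart. Of all its counted entries, summary lines included, 44.9% were multiply aligned (at more than 1 place), against 4.19% to 14.3% in the others. Entries overlapping more than 1 gene were 2.55% to 2.65% in the 3 treated libraries (low iron, malate) and 0.956% to 1.69% in the other 6. There the set of libraries and the treatment cannot be told apart. The 9 root tip markers were above 0 in every library and summed to 308 to 595 CPM. The 6 shoot markers summed to 66.2 to 115 CPM at high phosphate, 21.1 to 31.1 at low phosphate and 13.4 to 20.5 with low iron or malate, with at most 1 of 6 at 0. Their part in the results was not tested. ALMT1 had 1, 2 and 0 counts in the stop1 libraries and 15.2 to 97.5 CPM in almt1. STOP1 stood at 105 to 174 CPM in stop1 and 103 to 158 in the other 6 libraries. A mutant allele can still be transcribed, so STOP1 in stop1 and ALMT1 in almt1 do not check the labels. ALMT1, whose expression requires STOP1, was near 0 only in the libraries labelled stop1.

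The first question was how the 10 genes responded to low phosphate over the 3 genotypes. All 10 rose, by a log2 fold change of 1.80 to 9.80, beside 1.81% of 20340 genes called higher. Their median was 3.93, and that of all genes 0.0031. The test was the quasi-likelihood test of edgeR, blocked on genotype, so that the genotypes serve as replicates. With 1 library a group, a higher level from more cells of a type and from more RNA per cell cannot be told apart.

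**Figure D2:**
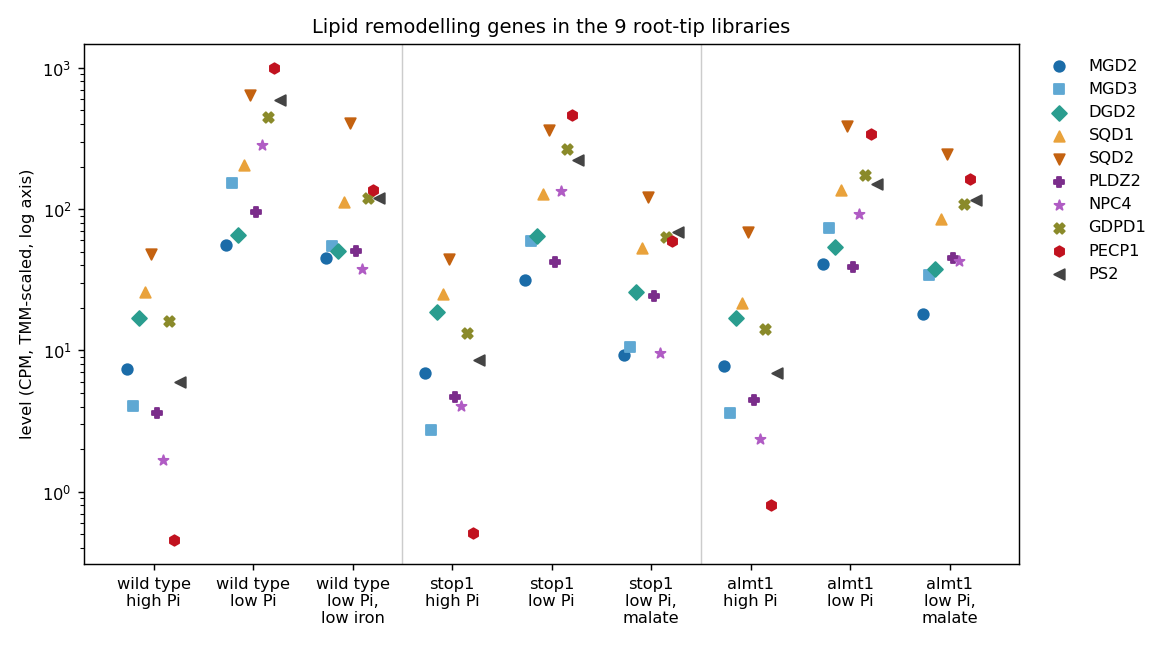
Level of each gene in each library in CPM after TMM scaling, on a log axis; each point is 1 library. Within each gene the 3 high-phosphate libraries are lowest and wild type at low phosphate is highest. The share of all genes with this order was not counted. CPM is not scaled for length, so a gene is to be compared with itself.

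Among the galactolipid enzymes, MGD2 (AT5G20410, chr5:6896463-6898783), a synthase of monogalactosyldiacylglycerol in the outer plastid envelope, stood at 7.35 CPM in wild type, 6.96 in stop1 and 7.72 in almt1 at high phosphate. At low phosphate MGD2 stood at 56.1, 31.3 and 40.8 CPM in the same order. It rose by 2.49 (SE 0.18, edgeR adjusted p = 0.0148). MGD3 (AT2G11810, chr2:4743162-4746813), the other synthase of this kind, had 4.04, 2.73 and 3.61 CPM at high phosphate and 153, 59.5 and 73.4 at low phosphate. Its rise, 4.67 (SE 0.23, edgeR adjusted p = 0.00984), was the largest among the 5 lipid-making enzymes. DGD2 (AT4G00550, chr4:237901-240579) adds the next galactose to give digalactosyldiacylglycerol. It stood at 16.9, 18.7 and 16.8 CPM at high phosphate and 65.8, 64.9 and 54.2 at low phosphate, the narrowest spread between genotypes among these 3 genes. DGD2 rose by 1.80 (SE 0.11, edgeR adjusted p = 0.0121), the smallest rise of the 10.

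Of the sulfolipid enzymes, SQD1 (AT4G33030, chr4:15935373-15937833) makes the sugar UDP-sulfoquinovose and SQD2 (AT5G01220, chr5:86543-90117) attaches it to diacylglycerol. SQD1 stood at 25.7 CPM in wild type, 25 in stop1 and 21.7 in almt1 at high phosphate, and at 205, 129 and 135 CPM at low phosphate. SQD2 stood at 48.1, 44.7 and 68.9 CPM at high phosphate, with almt1 the highest, and at 645, 364 and 386 at low phosphate. Both were higher at low than at high phosphate within each genotype. SQD1 rose by 2.65 (SE 0.16, edgeR adjusted p = 0.0121) and SQD2 by 3.07 (SE 0.28, edgeR adjusted p = 0.0202).

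The genes of phospholipid breakdown were 3. PLDZ2 (AT3G05630), a phospholipase D that turns phosphatidylcholine into phosphatidic acid, stood at 3.63, 4.71 and 4.48 CPM at high phosphate in wild type, stop1 and almt1, and at 95.2, 42.2 and 38.7 at low phosphate. NPC4 (AT3G03530, chr3:842499-845096), a non-specific phospholipase C that releases diacylglycerol, had 1.67, 4.03 and 2.36 CPM and then 282, 135 and 91.8. The wild-type library was lowest for both genes at high phosphate and highest at low phosphate. PLDZ2 rose by 3.63 (SE 0.38, edgeR adjusted p = 0.0241) and NPC4 by 5.84 (SE 0.55, edgeR adjusted p = 0.0207). GDPD1 (AT3G02040), a phosphodiesterase that cuts deacylated phospholipids to glycerol-3-phosphate, stood at 16.2, 13.3 and 14.2 CPM at high phosphate and 445, 268 and 174 at low phosphate. It rose by 4.23 (SE 0.27, edgeR adjusted p = 0.0124).

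The headgroup phosphatases included the steepest response. PECP1 (AT1G17710, chr1:6090405-6092027), which removes phosphate from phosphoethanolamine and phosphocholine, had 13, 13 and 26 counts at high phosphate in wild type, stop1 and almt1, or 0.453, 0.514 and 0.809 CPM. At low phosphate it had 20444, 13263 and 11289 counts, or 1003, 463 and 340.4 CPM. PECP1 thus went from below 1 CPM to at least 340.4 CPM in all 3 genotypes, a rise of 9.80 (SE 0.56, edgeR adjusted p = 0.0117). PS2 (AT1G73010, chr1:27464528-27466348), a related phosphatase, stood at 5.96, 8.58 and 6.91 CPM at high phosphate and 592, 222 and 149 at low phosphate. It rose by 5.21 (SE 0.54, edgeR adjusted p = 0.0238).

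Per kilobase of exon, which allows genes to be compared, the extremes of the order changed. At high phosphate SQD2 was highest of the 10 and PECP1 lowest in all 3 genotypes, with 21.1 and 0.330 RPKM (CPM divided by exon length in kilobases) in wild type. At low phosphate PECP1 was highest in all 3 genotypes, at 729.7, 337 and 248 RPKM in wild type, stop1 and almt1, and PLDZ2 lowest, at 27.1, 12 and 11. Together the 10 genes went from 130.1 to 3542 CPM in wild type, from 129 to 1779 in stop1 and from 148 to 1484 in almt1. In wild type that was 0.0125% and 0.350% of all gene counts. The order within a library has no replicate check. The 6 genes with a match to the PHR1 site near the start rose by 2.49 to 5.84 and the 4 without one by 1.80 to 9.80, so the ranges overlapped.

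These calls leaned on the stop1 pair. Without it 1 gene passed among all tested and 0 of the 10, whose adjusted p values in edgeR then lay between 0.0699 and 0.123. Their log2 fold changes over the 3 fits that each left out a genotype stayed between 1.73 and 10.46. Without the wild-type pair all 10 passed, beside 10.8% of genes called higher, and without the almt1 pair 9 did, beside 1.45%.

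Genotype by genotype, single libraries were compared as log2 ratios with 95% intervals for counting error only, and a gene was called where it was at least 2-fold apart and the interval excluded equality. All 10 genes were called higher in wild type, beside 11.7% of loci, in stop1, beside 3.8%, and in almt1, beside 3.06%. The ratios spanned 3.89-fold (DGD2) to 2213-fold (PECP1) in wild type, 3.47-fold to 901-fold in stop1 and 3.22-fold to 421-fold in almt1. For PECP1 the log2 ratio was 11.11 (10.34 to 12.02) in wild type, 9.82 (9.04 to 10.73) in stop1 and 8.72 (8.17 to 9.33) in almt1. These intervals are wide because they rest on 13 to 26 counts at high phosphate. For DGD2 the ratio was 1.96 (1.81 to 2.11), 1.79 (1.65 to 1.94) and 1.69 (1.55 to 1.83), and the wild-type interval overlapped both of the others.

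**Figure D3:**
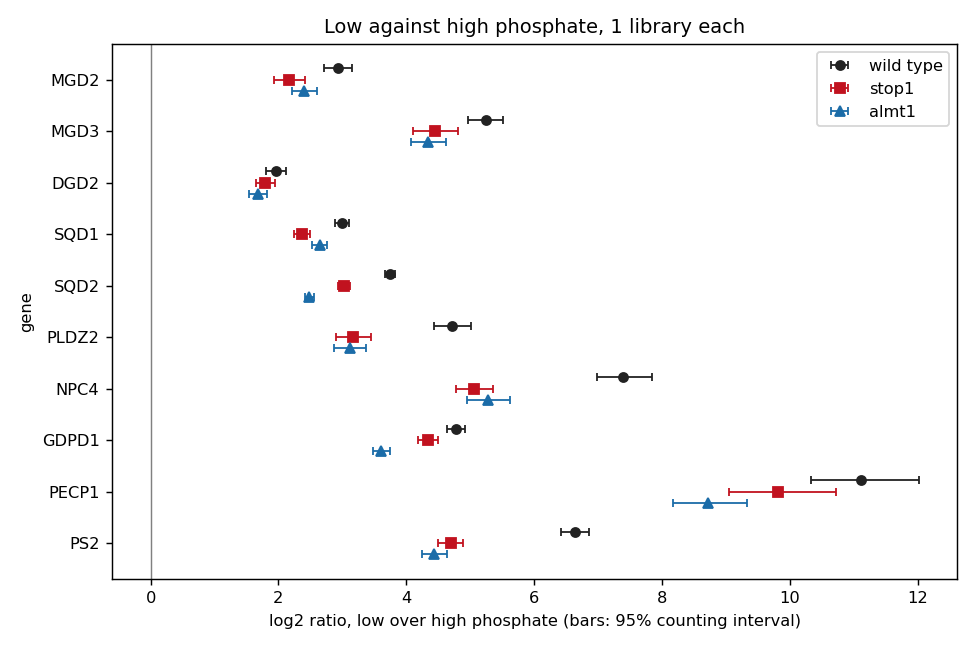
Log2 ratio of low to high phosphate for each gene in wild type (black circles), stop1 (red squares) and almt1 (blue triangles), 1 library each; bars are 95% counting intervals. All 30 ratios lie above 0, and the wild-type point is the highest for every gene. The low-phosphate library of wild type is the one with 44.9% of multiply aligned entries.

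Next, the mutants were set against wild type. At high phosphate 0 of the 10 passed in edgeR, in either direction, in a fit that called 0% of 21229 genes higher and 0% lower at an adjusted p under 0.05. At an unadjusted p under 0.05 that fit had 509 genes higher and 384 lower, none of the 10 among them. DESeq2 called 0% of genes in either direction, and so none of the 10. The 10 log2 fold changes ran from −0.34 (MGD3) to 0.92 (NPC4). In stop1 alone NPC4 was called higher, at 4.03 against 1.67 CPM, a log2 ratio of 1.27 (0.76 to 1.80), beside 1.16% of loci. It rests on 102 and 48 counts.

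At low phosphate all 10 log2 fold changes of the mutants against wild type were negative, from −0.14 (DGD2) to −1.67 (PS2), with a median of −1.10 beside −0.032 for all genes. PS2 was the only one that fell past the threshold (SE 0.35, edgeR adjusted p = 0.0468), beside 4.48% of genes called lower. At an unadjusted p under 0.05 there were 4 of the 10, beside 15.4% of genes. PS2 missed the threshold in 5 alternatives: without the filter on low counts, and without either mutant's high-phosphate or low-phosphate library. Its adjusted p over all alternatives ran from 4.52e-05 to 0.148. Single libraries gave 5 genes called lower in stop1, beside 8.92% of loci, and 6 in almt1, beside 9.21%. MGD3, PLDZ2, NPC4, PECP1 and PS2 were called in both mutants, and GDPD1 in almt1 with a log2 ratio of −1.35 (−1.40 to −1.30) against −0.73 (−0.77 to −0.68) in stop1. The wild-type library in these ratios is the one with 44.9% of multiply aligned entries, and the part of that in the result was not tested. Root tip markers differed too. In stop1 and almt1, CASP1 stood at 226 and 193 CPM against 127 in wild type, and GL2 at 13.0 and 11.6 against 8.93. COBL9 stood at 76.3 and 71.6 against 60.9, SCR at 42.3 and 35.4 against 34.9, and PLT1 at 13.2 and 15.2 against 12.9. WOX5 was lower, at 0.978 and 1.24 against 7.11, and PLT2, at 7.09 and 8.81 against 10.1. SHR and SMB lay on either side of wild type. The part of this in the result was not tested.

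Whether the mutants responded less to low phosphate was tested directly, as the response of wild type minus that of the mutants. All 10 differences were positive, from 0.21 (DGD2) to 2.21 (NPC4), with a median of 0.89 beside 0.067 for all genes, but 0 of the 10 passed in edgeR, beside 0.688% of genes called higher. At an unadjusted p under 0.05, with 12.9% of genes, were PS2 at 2.05 (SE 0.61, edgeR adjusted p = 0.145), PLDZ2 at 1.56 (SE 0.51, edgeR adjusted p = 0.162) and SQD2 at 0.97 (SE 0.39, edgeR adjusted p = 0.208). When the treated libraries were all left out, 6 of the 10 passed, beside 9.69% of genes called higher. Without the malate library of stop1 or of almt1 7 did, beside 12.6% and 12.4%, and DESeq2 called 2, beside 2.1%. When 1 of the other 4 mutant libraries was left out, whichever it was, 0 genes passed in edgeR. Over the alternatives run the sign held for all 10 except DGD2, at −0.01 without almt1 at low phosphate. Every difference contains the single low-phosphate library of wild type, with 44.9% of multiply aligned entries. Low against high phosphate in single libraries called 11.7% of loci higher in wild type, against 3.8% in stop1 and 3.06% in almt1. The part of that wild-type library in the differences was not tested.

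Adding malate to the mutants at low phosphate was the next comparison. Of the 10 genes, 7 fell in the mutants with malate, beside 19.4% of genes called lower in the same fit. The median of the 10 was −1.25, and that of all genes −0.025. Among the lipid-making enzymes all 5 passed: MGD2 fell by 1.44 (SE 0.20, edgeR adjusted p = 0.00810), MGD3 by 1.76 (SE 0.36), SQD2 by 1.12 (SE 0.22), SQD1 by 0.95 (SE 0.22) and DGD2 by 0.91 (SE 0.21), on the log2 scale, with edgeR adjusted p values of at most 0.0240. GDPD1 fell by 1.37 (SE 0.34, edgeR adjusted p = 0.0329) and PECP1 fell by 2.02 (SE 0.47, edgeR adjusted p = 0.0284). The other 3 did not pass: NPC4 at −2.25 (SE 0.74, edgeR adjusted p = 0.0681), PS2 at −1.0 (SE 0.33, edgeR adjusted p = 0.0690) and PLDZ2 at −0.27 (SE 0.26, edgeR adjusted p = 0.456). Without stop1 at low phosphate none passed, beside 0.264% of genes called lower, and without almt1 at low phosphate 3 did, beside 2.65%. Without the high-phosphate library 4 (stop1) and 3 (almt1) passed, beside 11.6% and 11.4%. Without the malate library 9 (stop1) and all 10 (almt1) passed, beside 17.8% and 26.8%. Without the filter on low counts 5 passed, beside 15.1%, with GDPD1 and PECP1 lost, and DESeq2 called 8, beside 15.8%.

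The levels in each mutant rest on 1 library a group, and no difference between the mutants was tested. In stop1, NPC4 stood at 135 CPM without and 9.66 with malate, PECP1 at 463 and 59.0, MGD3 at 59.5 and 10.5, and GDPD1 at 268 and 63.8. PS2 stood at 222 and 68.6 CPM there, SQD2 at 364 and 122, SQD1 at 129 and 53.1, DGD2 at 64.9 and 25.7, MGD2 at 31.3 and 9.25 and PLDZ2 at 42.2 and 24.4. Of the 10, 9 were called lower in stop1, beside 13.9% of loci, with PLDZ2 the exception at a log2 ratio of −0.79 (−0.92 to −0.67). In almt1, NPC4 stood at 91.8 and 42.7 CPM, PECP1 at 340.4 and 162, MGD3 at 73.4 and 34, MGD2 at 40.8 and 18.2, and these 4 were called lower, beside 7.18% of loci. All 4 lay close to the limit of 2-fold, with log2 ratios of −1.17 to −1.07, and with plain library totals in place of TMM scaling 1 of the 10, MGD2, was called. The others in almt1 stood at 174 and 109 CPM (GDPD1), 149 and 115 (PS2), 386 and 244 (SQD2), 135 and 85.7 (SQD1), 54.2 and 37.7 (DGD2) and 38.7 and 45.0 (PLDZ2). Plain totals moved the median log2 ratio of all genes by 0.18 in stop1 and 0.12 in almt1, and no gene of the 10 changed direction with them. With malate the root tip marker SCR was higher in both mutants, at 61.9 against 42.3 CPM in stop1 and 61.9 against 35.4 in almt1. CASP1 was lower, at 80.8 against 226 and 154 against 193. Of the other root tip markers PLT1, PLT2, SMB, GL2 and WOX5 were higher in both mutants. SHR was lower in stop1, at 32.3 against 39.5, and hardly differed in almt1, at 30.5 against 31.1. COBL9 was lower in stop1, at 68.9 against 76.3, and higher in almt1, at 83.3 against 71.6. With plain totals COBL9 stood at 75.0 against 73.5 in stop1, so its direction there depended on the scaling. The part of this in the result was not tested.

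**Figure D4:**
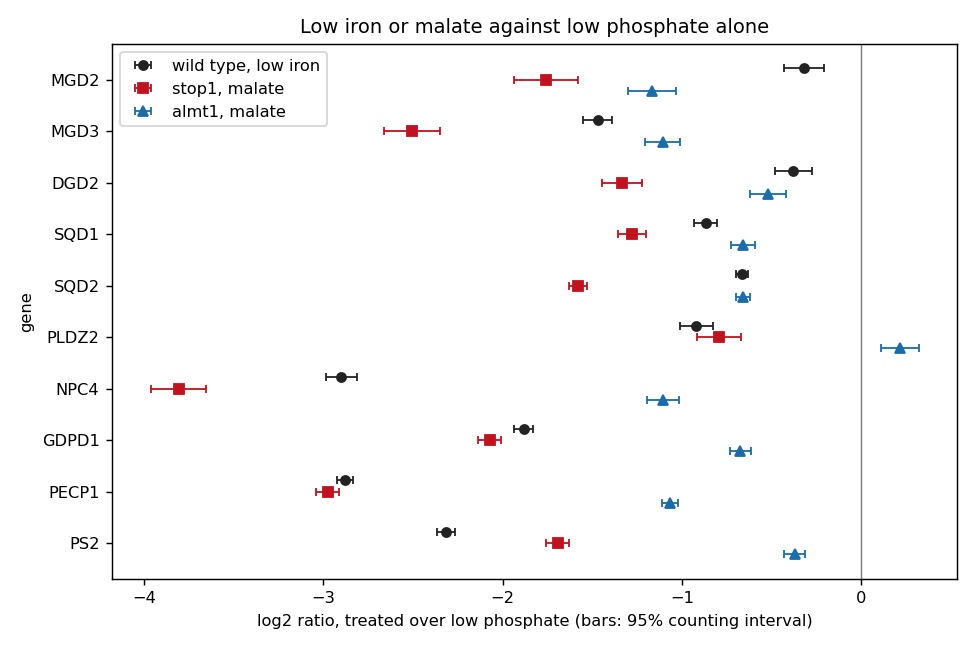
Log2 ratio of the treated to the low-phosphate library for each gene: low iron in wild type (black circles), malate in stop1 (red squares) and in almt1 (blue triangles), 1 library each; bars are 95% counting intervals. All points lie below 0 except PLDZ2 in almt1 at 0.22, and the stop1 point is left of the almt1 point for every gene.

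Low iron at low phosphate was measured in wild type alone. The low-phosphate library it is set against is the one with 44.9% of multiply aligned entries, against 4.39% with low iron. The part of that difference in these ratios was not tested. All 10 genes had lower levels than at low phosphate with iron, and 5 of them were called lower, beside 17.6% of loci. These were NPC4 at 37.8 against 282 CPM, PECP1 at 136 against 1003, PS2 at 119 against 592, GDPD1 at 121 against 445 and MGD3 at 55.1 against 153. Their log2 ratios were −2.90 (−2.98 to −2.81) for NPC4, −2.88 (−2.92 to −2.83) for PECP1, −2.32 (−2.37 to −2.27) for PS2, −1.88 (−1.93 to −1.83) for GDPD1 and −1.47 (−1.55 to −1.39) for MGD3. The remaining 5 were less than 2-fold apart: PLDZ2 at 50.3 against 95.2 CPM, SQD1 at 112 against 205, SQD2 at 407 against 645, DGD2 at 50.6 against 65.8 and MGD2 at 44.9 against 56.1. The intervals of all 10 lay below equality, and the share of all loci with such an interval was not counted. The median log2 ratio of the 10 was −1.20, beside 0.0046 for all loci. Root tip markers did not all move alike with low iron. COBL9 (root hairs) stood at 137 against 60.9 CPM, GL2 (epidermis) at 28.0 against 8.93 and SCR (endodermis and quiescent centre) at 63.3 against 34.9. CASP1 (endodermis) stood at 286 against 127, SMB at 23.4 against 14.6 and PLT1 at 15.4 against 12.9. SHR, at 31.8 against 31.9, and PLT2, at 9.62 against 10.1, hardly differed. WOX5 (quiescent centre) was lower, at 0.437 against 7.11. The part of this in the result was not tested.

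In each treated library all 10 genes stood above their level at high phosphate in the same genotype, with 1 library a group. Against high phosphate all 10 genes were called higher in wild type with low iron, beside 12.8% of loci, and in almt1 with malate, beside 7.29%, and 8 in stop1 with malate, beside 10.7%. The other two in stop1 were MGD2 at 9.25 against 6.96 CPM and DGD2 at 25.7 against 18.7. The share of the log2 rise at low phosphate still present had a median over the 10 genes of 73.0% with low iron (60.6% to 89.1%), 46.9% with malate in stop1 (18.9% to 74.9%) and 77.0% with malate in almt1 (51.5% to 107%). PLDZ2 kept the most in both malate libraries and GDPD1 the least with low iron. These shares reuse the high- and low-phosphate libraries of each genotype and have no test. Those with low iron also rest on the low-phosphate library of wild type, with 44.9% of multiply aligned entries.

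The rest of the pathway was followed through 9 lists with 58 genes, of which 54 had enough counts to test. In the phosphate test 8 of the 54 rose and 0 fell, beside 1.81% of genes called higher and 1.9% lower, and the median of the 54 was 0.23. DESeq2 called 12 higher, beside 4.83% of genes. Without the wild-type pair edgeR called 15 higher and 5 lower, beside 10.8% and 12.1% of genes. Without the stop1 pair it called none, beside 0.00496% of genes called higher. UGP3, a plastid pyrophosphorylase that supplies UDP-glucose for sulfolipid, rose by 2.54 (SE 0.34, edgeR adjusted p = 0.0355). The housekeeping galactolipid synthases DGD1, at 1.09 (SE 0.20, edgeR adjusted p = 0.0641), and MGD1, at 0.52 (SE 0.17, edgeR adjusted p = 0.152), did not pass. Of 5 other glycerophosphodiester phosphodiesterases 4 rose: GDPD3 by 4.67 (SE 0.55) and GDPD6 by 4.03 (SE 0.41), both resting on 1 to 5 counts in each high-phosphate library, and GDPD2 by 0.89 (SE 0.14) and GDPD5 by 0.85 (SE 0.13), with edgeR adjusted p values of 0.0229 to 0.0445. NPC6, a phospholipase C, rose by 1.28 (SE 0.20, edgeR adjusted p = 0.0490).

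Among 5 permeases for glycerol-3-phosphate, the product of the phosphodiesterases, G3Pp1 rose by 5.05 (SE 0.35, edgeR adjusted p = 0.0138) and G3Pp3 by 4.94 (SE 0.32, edgeR adjusted p = 0.0124). G3Pp1 stood at 8.30, 15.9 and 10.1 CPM at high phosphate in wild type, stop1 and almt1, and at 511, 368 and 274 at low phosphate. None passed in edgeR among 11 other phospholipases D, 8 phosphatidate phosphatases, 5 proteins of lipid transfer into plastids, 8 tested enzymes of phosphatidylcholine and phosphatidylethanolamine synthesis or 4 transcription factors including PHR1, itself at −0.21 (SE 0.10, edgeR adjusted p = 0.252). At an unadjusted p under 0.05, with 12.5% of all genes higher and 12.4% lower, these 5 lists had 2, 3, 1, 2 and 0 genes in the same order, and DESeq2 called 3 phosphatidate phosphatases higher and no gene of the other 4 lists. NMT1, NMT2 and AT1G73600, of the phosphatidylcholine list, and NPC5 had 0 to 6 counts in every library and were not tested. NMT1 is known to be expressed in roots, and such counts are not read as absence of expression. With malate 7 of the 54 rose and 12 fell, beside 17.2% of genes called higher and 19.4% lower. GDPD3 fell by 3.15 (SE 0.63, edgeR adjusted p = 0.0158) and GDPD6 fell by 2.04 (SE 0.42, edgeR adjusted p = 0.0158), while NPC6 rose by 0.84 (SE 0.17, edgeR adjusted p = 0.0153). Without stop1 at low phosphate 0 of the 54 passed, and without almt1 at low phosphate 1 fell and 0 rose, so that these 3 calls were lost in both fits. In the mutants against wild type at low phosphate 5 of the 54 fell, beside 4.48% of genes, among them UGP3 by 1.06 (SE 0.20, edgeR adjusted p = 0.0327) and DGD1 by 0.64 (SE 0.14, edgeR adjusted p = 0.0452). When 1 high- or low-phosphate library of stop1 or almt1 was left out, whichever it was, 0 of the 54 passed.

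**Figure D5:**
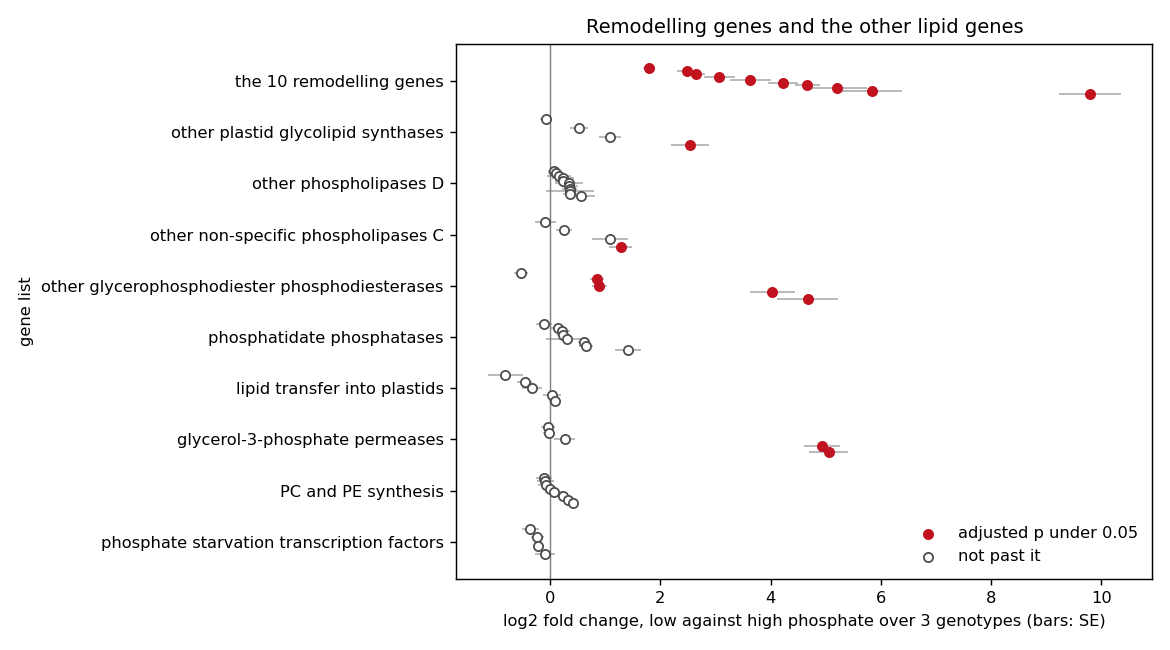
Log2 fold change of low against high phosphate over 3 genotypes, with SE bars, for the 10 genes and the 54 tested genes of the 9 lists; PC and PE are phosphatidylcholine and phosphatidylethanolamine. Filled points passed an adjusted p of 0.05 in edgeR: all 10 remodelling genes and 8 of the 54.

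Over the 9 libraries each of the 10 genes followed their shared profile, the mean of their standardised log2 CPM, with Pearson r of 0.953 (MGD2) to 0.997 (SQD1). Each of the 10 is itself part of that mean, which raises its r. The contrast of high and low phosphate also makes up much of such an r, which is given as a description. Outside the 10, the genes nearest to the shared profile among 16727 were AT1G67600 (r = 0.996), AT5G53048 (0.994), the phosphate transporter PHT1;9 (0.993), PFA-DSP2, an atypical dual-specificity phosphatase (0.993), and the phosphate transporter PHT1;8 (0.992). PHT1;8 had 0 counts in all 3 high-phosphate libraries and stood at 17.9, 7.55 and 5.67 CPM at low phosphate in wild type, stop1 and almt1, 2.43 with low iron, and 0.843 and 3.18 with malate in stop1 and almt1. AT1G67600 stood at 1.60, 1.78 and 1.68 CPM at high phosphate, 27.7, 16.5 and 19.0 at low phosphate, 14.9 with low iron, and 4.80 and 8.40 with malate. Both were highest in wild type at low phosphate and lower in all 3 treated libraries, as were 9 of the 10, PLDZ2 being higher in almt1 with malate. Because both genes were picked by their correlation with the shared profile, this likeness was built in.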

How the data were processed

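Per the labels, total RNA was isolated with TRIzol and made into TruSeq libraries that do not keep the strand. The deposited values are raw counts of reads per locus; the authors used TopHat2, HTSeq and TAIR10, per the submitters' processing notes, which give no versions. Of 5 summary lines in each library none entered totals or tests. No pair of libraries agreed within sampling noise (chi-square per degree of freedom at least 24.5).

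The members and lists were chosen with earlier results of these data known. Tests used edgeR 4.0.16 in R 4.3.3 with limma 3.58.1: quasi-likelihood fits, TMM scaling, filterByExpr (count minimum 10, total minimum 15), and Benjamini-Hochberg adjustment over all genes tested, at a threshold of 0.05. The phosphate test used 6 libraries with genotype as a block, leaving 2 residual degrees of freedom. The malate test and the response difference used 9 libraries with a stop1 against almt1 term, also leaving 2. The comparisons of mutants with wild type used 9 libraries without that term, leaving 3. In the 9-library fits the mutants are treated as replicates of each other, which assumes that a wild-type library varies as much as they do. The series design gives 1 biological replicate per group, so p-values measure the spread between these samples only. The SE is the absolute log2 fold change divided by the square root of the F statistic. Alternatives were DESeq2 1.42.0, RLE scaling, no filter, libraries left out, 6 libraries only and plain library totals.

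Single libraries were compared by the ratio of their counts after TMM scaling (log2), and a 95% interval from the exact binomial distribution given their sum, which covers counting error only. Of 13 such pairs, 7 were added after values had been seen. All 10 members are named, with up to 4 called genes of each list by size of change in the phosphate test, and the 5 genes nearest to the members' mean profile among those with at least 5 CPM in a library (Pearson correlation of log2 CPM with a prior count of 2). MGD1, DGD1, PHR1 and the untested genes were named after their values were seen. Sequences, exon lengths, positions and overlaps come from RefSeq's TAIR10.1 with its own annotation, which matched 32835 loci; the authors' build is given as TAIR10, so positions are those of TAIR10.1. A planned comparison of proteins was not run.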

Additional observations from a re-analysis of the deposited data

Results flagged for a closer look

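PLDZ2, the phospholipase D, went in opposite directions with malate in the mutants. Its log2 ratio to low phosphate alone was −0.79 (−0.92 to −0.67) in stop1, from 1209 to 953 counts, and 0.22 (0.11 to 0.32) in almt1, from 1285 to 1698 counts. Each rests on 1 library a group, and the difference between the mutants was not tested.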

How the results depend on the processing

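The sign of the 10 phosphate responses was the same under every alternative run. Genes called in that test numbered 754, 1988 with DESeq2 and 1 to 4599 with a genotype pair left out, members 0 to 10. With malate, 7763 genes were called, 7441 without the filter (members 5), 5745 with DESeq2 (members 8) and 69 to 10206 with 1 mutant library left out, members 0 to 10. PLDZ2 then lay between −0.79 and 0.21, positive without stop1 at low phosphate (0.03) or without stop1 with malate. For the response difference, 265 genes were called, 514 with RLE scaling, 548 without the filter, 959 with DESeq2, 3764 with 6 libraries and 0 to 4641 with 1 library left out. Members called were 2 with DESeq2, 6 with 6 libraries and 0 to 7 with 1 left out, and DGD2 lay between −0.010 (without almt1 at low phosphate) and 0.46. For the mutants at low phosphate, 1401 genes were called, 2264 with DESeq2 and 130 to 1476 with 1 library left out; members numbered 0 without the filter, 3 with DESeq2, 4 with 6 libraries and 0 to 4 with 1 left out. At high phosphate 3 genes changed sign with a high-phosphate library left out and none passed: MGD2 lay between −0.080 and 0.068, DGD2 between −0.010 and 0.14, and SQD2 between −0.11 and 0.52. With plain totals 1 gene, not 4, was called lower with malate in almt1. In the 1000 bases before the start, a window chosen after seeing the data, 7 of 10 members and 5413 of 26711 protein-coding loci (20.3%) held a PHR1 site. PECP1 and SQD2 were among these members, and SQD1 was not. The cause of these changes was not tested. Fits that leave out 1 library of a mutant pair assume that the lone library varies like the others. No paired analysis was possible because the labels carry no replicate numbers to pair by; the genotype block of the phosphate test sets the media side by side within a genotype. Depth limits PECP1 at high phosphate, with 13 to 26 counts.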
